A study of Mus musculus with 6 samples.

Results

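The potassium channel genes of the mouse brain were taken as every probe of the deposited table whose gene symbol starts with Kcn, with Kcne2 left out. This gave 124 probes of 83 genes, among 25697 probes of 18138 gene symbols in all. A probe was tested when its detection p-value, which compares its brightness with that of negative-control beads on the same array, was under 0.05 on at least 3 of the 6 arrays. This left 68 probes of 54 potassium channel genes, among 14215 tested probes of 10548 symbols.

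The study asked how gene expression differs in organs of mice in which a transgene of human SRY, the Y-linked gene that starts testis development, is active outside the testis. Whole brains of male mice at postnatal day 6, labelled FVB and kept on the FVB/N background, were hybridized to Illumina MouseRef-8 v2.0 bead arrays, with 3 arrays from hSRY-OFF and 3 from hSRY-ON mice, each from a separate sample. The Signalox-hSRY line carried a single copy of the transgene at the H11 locus on chromosome 11 under the ubiquitous CAG promoter. The study defines hSRY-OFF mice as those whose transgene was not recombined, with its blocking cassette, which holds the red fluorescent protein DsRed2, in place. By that definition the controls also carried the transgene. The study also calls the array controls control pups, and it elsewhere defines control littermates as lacking the transgene. In hSRY-ON mice the cassette had been removed in the single-cell embryo by Cre recombinase that the oocyte of a Ddx4-Cre mother supplied. This activated EGFP together with hSRY. The hSRY-ON mice chosen for the arrays did not themselves carry Ddx4-Cre. The study does not state which cross gave the hSRY-OFF mice of the arrays, so a difference between crosses cannot be told apart from the transgene. No probe for the transgene was analysed here, so its activation was not measured on these arrays.

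Potassium channels let potassium ions leave or enter a cell along their gradient and so set the resting potential, repolarize the action potential and, in glia, clear potassium from the extracellular space. Voltage-gated channels open on depolarization. Inward rectifier channels pass current most readily near the resting potential, and some of them open on binding of G protein subunits or close on binding of ATP. Two-pore channels carry background leak currents, calcium-activated channels couple calcium entry to repolarization, and auxiliary subunits and regulators change the trafficking or gating of the pore-forming proteins. In the developing brain many of these genes rise as neurons and glia mature.

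Promoter sequence is shown for the gene that passed the test, Kcnrg, and for the 5 inward rectifier genes whose groups of arrays did not overlap, because SRY is a DNA-binding protein that recognizes AACAAT and because these inward rectifiers lay on the same side in the comparison. The sequences are the 250 bases before the first listed transcription start (RefSeq, build GRCm38.p6). They lie at chr14:61607207-61607456 on the plus strand for Kcnrg, chr11:110967783-110968032 on the plus strand for Kcnj16 and chr11:61065554-61065803 on the plus strand for Kcnj12. Those of the others lie at chr2:55435720-55435969 on the plus strand for Kcnj3, chr15:79505242-79505491 on the minus strand for Kcnj4 and chr16:94997697-94997946 on the minus strand for Kcnj6. Each is printed 5′ to 3′ on the strand of its gene, in lower case throughout because neither motif searched was found in it.
Kcnrg: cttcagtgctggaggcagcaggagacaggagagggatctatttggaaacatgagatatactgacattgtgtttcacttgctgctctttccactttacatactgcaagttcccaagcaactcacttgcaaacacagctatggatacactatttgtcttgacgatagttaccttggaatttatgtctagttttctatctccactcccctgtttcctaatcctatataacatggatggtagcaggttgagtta
Kcnj16: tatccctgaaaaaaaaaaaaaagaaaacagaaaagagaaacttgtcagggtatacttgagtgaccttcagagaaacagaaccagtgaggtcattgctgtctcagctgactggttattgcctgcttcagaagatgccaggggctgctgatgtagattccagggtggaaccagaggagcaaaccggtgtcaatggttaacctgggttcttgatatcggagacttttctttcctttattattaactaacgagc
Kcnj12: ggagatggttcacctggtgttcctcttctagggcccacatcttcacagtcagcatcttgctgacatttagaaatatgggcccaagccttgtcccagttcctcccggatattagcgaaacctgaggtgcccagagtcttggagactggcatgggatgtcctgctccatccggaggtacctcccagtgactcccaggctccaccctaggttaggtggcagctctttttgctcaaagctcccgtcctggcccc
Kcnj3: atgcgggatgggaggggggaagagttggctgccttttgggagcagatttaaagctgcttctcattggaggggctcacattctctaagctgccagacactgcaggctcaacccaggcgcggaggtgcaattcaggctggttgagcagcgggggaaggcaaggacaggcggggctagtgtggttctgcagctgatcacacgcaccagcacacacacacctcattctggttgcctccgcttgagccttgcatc
Kcnj4: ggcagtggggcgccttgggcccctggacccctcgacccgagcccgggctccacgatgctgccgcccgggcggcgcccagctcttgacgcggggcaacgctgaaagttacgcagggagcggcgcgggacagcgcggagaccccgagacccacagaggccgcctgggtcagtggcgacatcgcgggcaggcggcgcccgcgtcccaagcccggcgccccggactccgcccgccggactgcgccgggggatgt
Kcnj6: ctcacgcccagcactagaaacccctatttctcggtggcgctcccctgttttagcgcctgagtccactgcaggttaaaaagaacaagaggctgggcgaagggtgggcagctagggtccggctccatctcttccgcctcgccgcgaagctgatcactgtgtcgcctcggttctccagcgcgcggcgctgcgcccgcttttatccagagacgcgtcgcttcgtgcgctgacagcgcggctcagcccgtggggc

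The motifs searched were AACAAT, the core bound by SRY, and AACAAAG, a core shared by SOX and TCF factors, each on both strands. RefSeq promoters were found for 39 of the 54 tested potassium channel genes, with 58 windows of 250 bases. AACAAT was in 3 of these windows (5.17%), against 9.42% of the 32851 windows of the whole promoter table. AACAAAG was in 2 of them (3.45%), against 5.03% of the whole table. Of the 12 windows of tested inward rectifier genes, 0 held AACAAT and 0 held AACAAAG. The absence of a match says only that these letters are not in these windows. The G and C content of the printed windows ran from 41.6% at Kcnrg to 77.2% at Kcnj4.

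The arrays were of like brightness, with median intensities of 200 to 220. Between 63 and 72 of the 124 potassium channel probes were detected on an array. The counts were 68, 72 and 64 on the hSRY-OFF arrays and 67, 67 and 63 on the hSRY-ON arrays, which is 68 ± 4 against 65.7 ± 2.3 (SD, n = 3 per group; exact permutation test, two-sided, p = 0.4, where 0.1 is the smallest p possible). At a stricter detection p-value of 0.01 the counts were 60, 62 and 57 against 56, 55 and 55, with no overlap between the groups and an exact permutation p of 0.1, again the smallest possible. The tissue label was checked with 11 fixed neuronal genes, of which 9 had a probe and 6 were tested, among them Stmn2, Syt1 and Gad1, detected on all 6 arrays. Snap25, Nefl and Gad2 did not pass the filter.

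Of the 56 potassium channel probes that were not tested, 45 were detected on no array and 11 on 1 or 2 arrays. At least 1 probe was tested for 20 of 36 voltage-gated genes, 8 of 12 inward rectifier genes, 9 of 13 two-pore genes, 4 of 7 calcium-activated genes and 13 of 15 auxiliary genes. The 29 genes without a tested probe included Kcnd3, which carries part of the transient outward current of neurons, Kcnk9, a two-pore channel of cerebellar granule cells, Kcnn2 and Kcnn3, small-conductance calcium-activated channels, and Kcnj5, Kcnj1, Kcnj14 and Kcnj15 of the inward rectifiers. The astrocytic Kcnj10, the ATP-sensitive Kcnj11, Kcnj13 and Kcnc2 were not analysed here. At the edge of the filter, Kcnd1, Kcnj6 and Kcnmb2 were among the members detected on 3 arrays and tested, while 1 probe each of Kcnc1, Kcne1, Kcnk4 and Kcnk9 was detected on 2 arrays and not tested. Kcnj6 passed only through the hSRY-OFF group, on all 3 arrays of which it was detected, against 0 of 3 in hSRY-ON. Most tested members, 57 of the 68 probes, were detected on all 6 arrays.

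The comparison of hSRY-ON with hSRY-OFF addresses whether the transcripts of these channels differ in brains with the active transgene. In limma's linear model, with Benjamini-Hochberg adjustment over all 14215 probes, 1 of the 68 potassium channel probes had an adjusted p under 0.05, against 308 of all tested probes (2.17%). This was a probe of Kcnrg, which rose in hSRY-ON, where 0.844% of all tested probes were called higher and 1.32% lower. At an adjusted p under 0.10 there were 5 probes, of Kcnrg, Kcnj16, Kcnq5, Kcnip3 and Kcnt1, against 7.03% of all tested probes. At an unadjusted limma p under 0.05, 20 potassium channel probes stood out (29.4%), against 20.9% of all tested probes. Of the 20, 5 were higher in hSRY-ON, where the background is 10.1%, and 15 were lower, where the background is 10.9%. The groups of arrays did not overlap for 22 of the 68 probes (32.4%), against 27.7% of all tested probes. The 15 include Kcnj6, detected on no hSRY-ON array, and without it 14 of 67 probes were lower. Without 1 array the 20 probes became 13 when hSRY-OFF array 2 was left out (9 of 65 tested lower), 11 for hSRY-OFF array 3 (8 of 66 lower) and 12 for hSRY-ON array 1 (10 of 65 lower), and were 18 or 19 for each of the other 3.

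Over the 68 probes the median log2 fold change, hSRY-ON minus hSRY-OFF, was -0.07, against 0.0048 over all tested probes. The fold change was below 0 for 41 of them (60.3%), against 48.9% of all tested probes. For the 57 probes detected on all 6 arrays, which leaves Kcnj6 out, the median was also -0.07, 36 were below 0 and 18 had an unadjusted limma p under 0.05. By subfamily, the median was -0.37 over 8 inward rectifier probes, -0.08 over 26 voltage-gated probes, -0.07 over 11 two-pore probes, 0.11 over 4 calcium-activated probes and -0.02 over 19 auxiliary probes. The sign of the auxiliary median turned, to 0.04, when no filter on dim probes was used, and was also above 0 when array 2 of hSRY-OFF or array 2 or 3 of hSRY-ON was left out. The voltage-gated median was -0.19 without hSRY-ON array 2, and the two-pore median -0.20 without hSRY-OFF array 2. With 1 probe per symbol these medians were -0.15 and -0.0076. The calcium-activated median, of 4 probes, was 0.073 without hSRY-ON array 2. Whether one subfamily differed from another was not tested. The inward rectifiers had the median farthest from 0 and the calcium-activated genes the only one above 0.

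**Figure D1:**
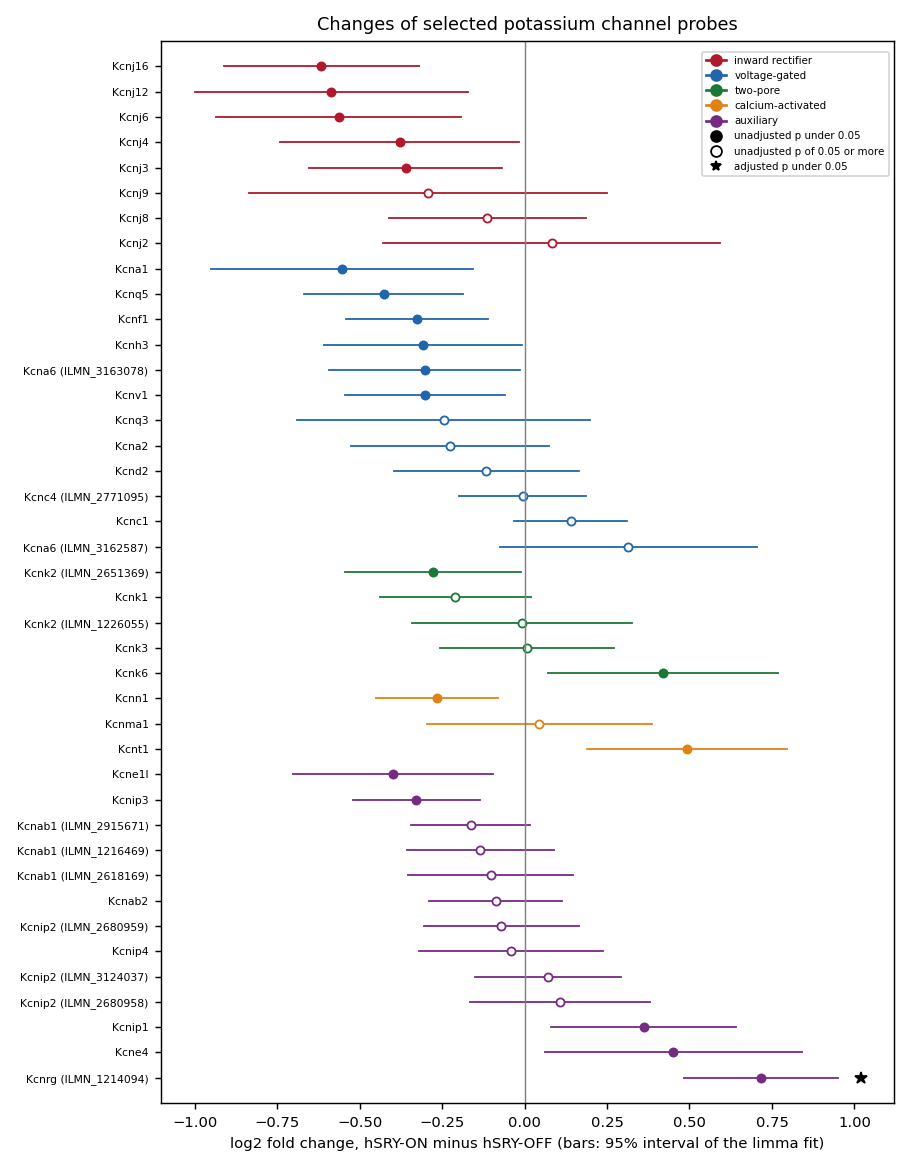
Log2 fold change (hSRY-ON minus hSRY-OFF) of 41 of the 68 tested potassium channel probes, picked by the naming rule and reported here, with the 95% interval of the limma fit as bars, coloured by subfamily; filled points have an unadjusted p under 0.05 and the star marks an adjusted p under 0.05. The star stands in the row of 1 Kcnrg probe alone, whose point is at 0.72, and 7 of the 8 inward rectifier points lie below 0.

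**Figure D2:**
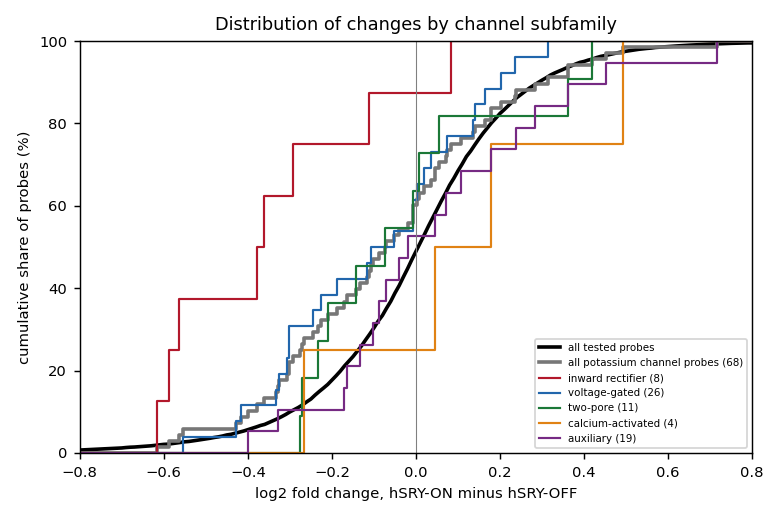
Cumulative share of probes (percent) against log2 fold change (hSRY-ON minus hSRY-OFF) for all 14215 tested probes in black, the 68 potassium channel probes in grey and each subfamily in colour. Above its lowest value of -0.62 the inward rectifier curve of 8 probes lies left of the others. Its median is -0.37 against 0.0048 for all tested probes.

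Kcnrg, the potassium channel regulator, encodes a soluble protein that resembles the assembly domain of voltage-gated channels and lowers their current. The normalized log2 signal of probe ILMN_1214094 was 6.87, 6.64 and 6.68 on the hSRY-OFF arrays and 7.47, 7.33 and 7.54 on the hSRY-ON arrays. Every hSRY-ON array lay above every hSRY-OFF array. The mean rose from 6.73 ± 0.12 to 7.45 ± 0.10 (SD, n = 3 per group), a log2 fold change of 0.72 (SE 0.099, 95% interval 0.48 to 0.95) or 1.64-fold, with a limma adjusted p of 0.0294. The second probe of Kcnrg, ILMN_3163138, read 6.46, 5.99 and 5.91 in hSRY-OFF and 6.44, 6.57 and 6.20 in hSRY-ON. Its groups overlapped, and its log2 difference of 0.28 (SE 0.17, limma adjusted p 0.381) did not pass the test. The probes of Kcnrg thus lay on the same side, and 1 of them passed.

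In the RefSeq annotation the range of Kcnrg on chromosome 14 overlaps those of Trim13 and Dleu2. The 1 probe of Trim13 was detected on 0 of 6 arrays, and Dleu2 was not analysed here. Left without 1 array, the fold change of the Kcnrg probe lay between 0.67 and 0.78 on the log2 scale, and its adjusted p stayed under 0.05 only without hSRY-ON array 3, at 0.0374. It was 0.0921, 0.111 and 0.0933 without hSRY-OFF arrays 1 to 3 and 0.0848 and 0.0614 without hSRY-ON arrays 1 and 2. In the limma fit with the replicate number as a block the adjusted p was 0.0989. With no background correction the fold change was 0.34 (adjusted p 0.0055).

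Of the 8 tested inward rectifier genes, 7 had a fold change below 0 and 5 an unadjusted limma p under 0.05, all 5 lower in hSRY-ON and all 5 with no overlap between the groups. Over all tested probes, 10.9% were lower at such a p and 14.2% were lower without overlap. Kcnj6 entered the test only through the hSRY-OFF group, where it is high. Of the 7 genes without it, 4 had an unadjusted limma p under 0.05 and 4 did not overlap, and the median was -0.36 in place of -0.37. None of the 8 had an adjusted p under 0.05. Kcnj16 encodes a subunit that makes pH-sensitive channels together with other inward rectifiers in astrocytes. Its signal was 7.10, 7.08 and 7.35 on the hSRY-OFF arrays and 6.50, 6.42 and 6.77 on the hSRY-ON arrays. The lowest hSRY-OFF array was thus above the highest hSRY-ON array. The log2 fold change of Kcnj16 was -0.62 (SE 0.13, 95% interval -0.91 to -0.32, 1.53-fold lower), with an unadjusted limma p of 0.0017 and an adjusted p of 0.0565, just short of the threshold. It had the next lowest adjusted p after Kcnrg. The adjusted p of Kcnj16 was under 0.05 in 9 of 18 alternatives, over which it ranged from 0.0196 to 0.153.

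Kcnj12 and Kcnj4 encode strongly rectifying channels that hold neurons near rest. For Kcnj12 the signal was 6.76, 6.87 and 6.61 in hSRY-OFF and 6.22, 5.78 and 6.47 in hSRY-ON, a log2 fold change of -0.59 (SE 0.18, unadjusted limma p 0.012, adjusted p 0.125). The hSRY-ON arrays were spread wide, with array 2 farthest down. For Kcnj4 the signal was 8.57, 8.60 and 8.58 in hSRY-OFF, nearly equal, and 8.45, 7.85 and 8.32 in hSRY-ON. Its log2 fold change was -0.38 (SE 0.15, unadjusted limma p 0.042, adjusted p 0.220), and again hSRY-ON array 2 lay lowest. Without 1 array the fold change of Kcnj4 lay between -0.50 and -0.20, the latter without hSRY-ON array 2, and the unadjusted limma p was under 0.05 in 2 of 6 fits. The third member of this kind, Kcnj2, read 5.98, 6.17 and 5.29 in hSRY-OFF and 5.83, 5.84 and 6.03 in hSRY-ON. It was the 1 inward rectifier with a fold change above 0, at 0.08 (SE 0.22, adjusted p 0.866), its groups overlapped, and the sign turned to -0.18 without hSRY-OFF array 3.

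Kcnj3, Kcnj6 and Kcnj9 encode subunits of the G protein-gated channels through which inhibitory transmitters quiet neurons. Kcnj3 read 6.99, 6.72 and 7.14 in hSRY-OFF and 6.48, 6.60 and 6.68 in hSRY-ON, a log2 fold change of -0.36 (SE 0.12, unadjusted limma p 0.022, adjusted p 0.162). Without 1 array it was between -0.48 and -0.27, with an unadjusted limma p under 0.05 in 3 of 6 fits. Kcnj6 read 5.99, 5.62 and 5.71 in hSRY-OFF and, where no array detected it, 5.26, 4.93 and 5.45 in hSRY-ON. Because the hSRY-ON values of Kcnj6 are not above background, only a bound can be given. By the group means of this probe Kcnj6 was at least 1.26-fold higher in hSRY-OFF, counting the hSRY-ON arrays at their lowest detected signal. This bound takes no account of the spread between arrays. The limma adjusted p, which rests on the measured hSRY-ON values, was 0.109. The other probes of Kcnj6 were detected on 0 of 6 arrays, those of hSRY-OFF included. For Kcnj9 the signal was 6.21, 6.11 and 6.38 in hSRY-OFF and 5.38, 6.22 and 6.22 in hSRY-ON. Only hSRY-ON array 1 of Kcnj9 was apart, and the log2 difference of -0.29 (SE 0.23, adjusted p 0.514) had an interval from -0.83 to 0.25. Kcnj8, the pore of ATP-sensitive channels in vascular mural cells, overlapped between the groups at 6.87, 7.30 and 7.21 against 7.10, 6.99 and 6.94, with a log2 difference of -0.11 (SE 0.13, adjusted p 0.659).

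**Figure D3:**
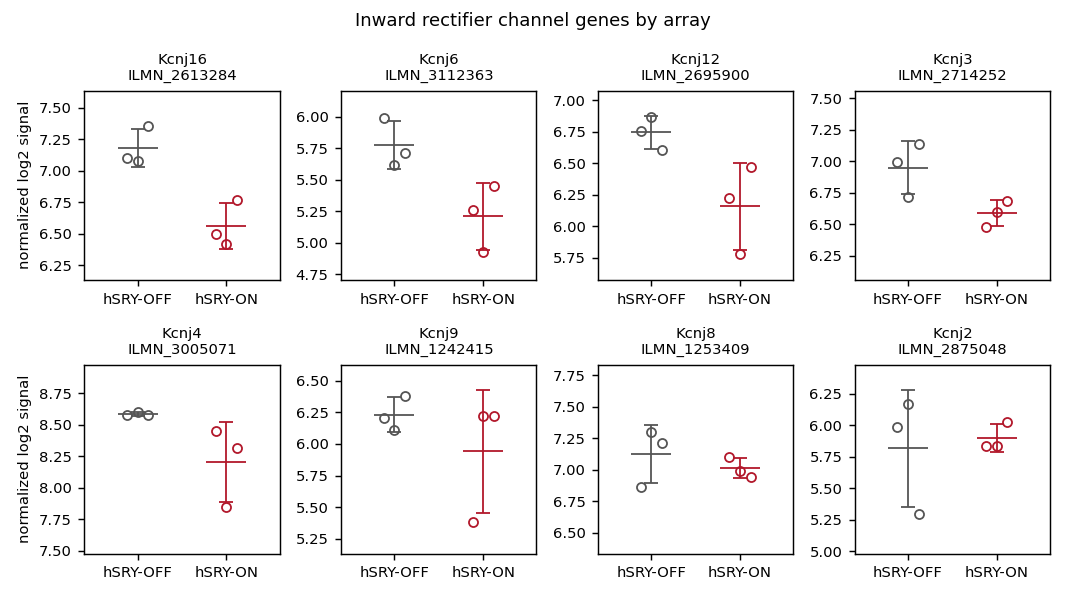
Normalized log2 signal of the 8 tested inward rectifier probes on each of the 3 hSRY-OFF and 3 hSRY-ON arrays (circles), with the group mean and SD as bars; each panel has its own vertical range of equal height in log2 units. The groups do not overlap for Kcnj16, Kcnj6, Kcnj12, Kcnj3 and Kcnj4 and overlap for Kcnj9, Kcnj8 and Kcnj2.

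The inward rectifiers were also read array by array. Set against the hSRY-OFF mean of each probe, the median deviation of the 8 probes was -0.49, -0.54 and -0.27 on hSRY-ON arrays 1 to 3, and -0.47, -0.35 and -0.26 for the 7 probes without Kcnj6. On the hSRY-OFF arrays it lies near 0 by this centring. Over all tested probes it lay within 0.01 of 0 on every array, where quantile normalization holds it in advance. The size of the shift depended on the background correction. With no background correction the median over the 8 probes was -0.15, with 5 at an unadjusted limma p under 0.05 as before. Without hSRY-OFF array 1, 2 or 3 that number was 3, 3 and 2, with 7 probes tested in each of these fits, and without Kcnj6 it was 4.

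Markers of several cell types also differed between the groups, in either direction. Of 8 tested astrocyte genes, 5 were lower in hSRY-ON and 2 of these passed the test, Aqp4 (log2 fold change -0.81) and Gfap (-0.83), where 1.32% of all tested probes were called lower. Aldh1l1 was also lower without overlap by its brightest probe, at -0.48 (unadjusted limma p 0.0044, adjusted p 0.0834). Another 2 lay the other way without overlap, Gjb6 at 0.46 (unadjusted limma p 0.0075, adjusted p 0.102) and Aldoc at 0.28 (unadjusted limma p 0.0079, adjusted p 0.105). The adjusted calls of lower genes in this list and in the oligodendrocyte and precursor lists were lost in the limma fit with the replicate block and in the fits without any 1 array other than hSRY-ON array 3. The summed normalized signal of the astrocyte list on the linear scale was 44568.6 to 44892.1 in hSRY-OFF and 43184.6 to 49259.3 in hSRY-ON, so the groups overlapped. All 8 oligodendrocyte genes were lower, 2 of them past the test, and their sum was 23822.5 to 30754.9 against 17829.9 to 18512.7. Of the oligodendrocyte precursor genes 4 of 5 were lower, with 1 past the test, and the sum was 11740.8 to 12299.8 against 9617.6 to 10027.7. Of 6 tested neuronal genes 4 were lower and 0 passed the adjusted limma test, with 1, the glutamate transporter Slc17a7, at an unadjusted p under 0.05 (log2 fold change -0.63), and the sum was 45688.2 to 50101.6 against 46997.7 to 49188.9. In whole brain RNA, fewer cells of a type and less RNA per cell cannot be told apart, and the part of cell makeup in the channel values was not tested.

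The remaining lists were those of interneurons, vessels, microglia, choroid plexus and blood. Among 3 tested genes of parvalbumin interneurons, Pvalb itself fell (log2 fold change -1.27, limma adjusted p 0.024, a call lost in the same fits) and the other 2 were above 0. The list sum was 3536.97 to 3770.13 against 2708.34 to 2819.47, a fall that comes from Pvalb alone. Endothelial genes were lower for 4 of 6 (sum 7424.99 to 7687.79 against 5403.64 to 6386.37) and genes of pericytes and vascular smooth muscle for 3 of 6 (2013.47 to 2088.87 against 1860.85 to 2127.38). Microglial genes were higher for 5 of 7 (2299.5 to 2588.94 against 2786.24 to 3041.59), choroid plexus genes for 6 of 6 (15946.9 to 18951.5 against 19220.7 to 24263.5) and erythroid genes for 1 of 4 (32649.7 to 37127.1 against 29212.4 to 36513.6). In the endothelial, pericyte and smooth muscle, microglial, choroid plexus and erythroid lists 0 genes passed the adjusted limma test, with 5, 1, 1, 3 and 0 at an unadjusted p under 0.05, in that order, against 20.9% of all tested probes. Of the 5 endothelial genes 4 were lower and 1 higher, and the 3 choroid plexus genes, Ttr, Clic6 and Kl, were higher. Kl was detected on 0 hSRY-OFF and 3 hSRY-ON arrays. It entered the test only through the group where it is high, so it adds no support to the choroid plexus counts. S100b, Syt2, Kdr, Tagln and Myh11 were among the genes that did not pass the filter.

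Among the 26 tested voltage-gated probes, 16 were below 0 and 6 (23.1%) had an unadjusted limma p under 0.05, near the 20.9% of all tested probes. All 6 were lower in hSRY-ON, where the background is 10.9%. None had an adjusted p under 0.05. Kcnq5 encodes a channel of the slow M-current that dampens repetitive firing. It read 6.58, 6.32 and 6.31 in hSRY-OFF and 6.05, 5.88 and 5.99 in hSRY-ON, without overlap, a log2 fold change of -0.43 (SE 0.10, unadjusted limma p 0.0040, adjusted p 0.0801). Its relative in that current, Kcnq3, gave a log2 fold change of -0.25 (adjusted p 0.502).

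The Kcna genes encode the channels that limit axonal excitability. For Kcna1 the signal was 6.11, 6.38 and 6.07 in hSRY-OFF and 5.32, 5.94 and 5.65 in hSRY-ON, where 2 of 3 arrays detected it. The groups did not overlap and the log2 fold change was -0.55 (SE 0.17, unadjusted limma p 0.013, adjusted p 0.129). The probes of Kcna6 disagreed. One read 7.66, 8.01 and 7.78 against 7.39, 7.68 and 7.47 (log2 fold change -0.30, unadjusted limma p 0.043, adjusted p 0.221), and the other 5.68, 6.18 and 5.74 against 6.35, 6.25 and 5.95 (0.31, adjusted p 0.325), so Kcna6 has no settled direction. Kcna2 was at -0.23 (adjusted p 0.356) and Kcna3, with no overlap between the groups, at 0.24 (adjusted p 0.305).

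Kcnf1 and Kcnv1 encode silent subunits, which form no channel alone and modify the delayed rectifier channels they join. Kcnf1 read 8.68, 8.60 and 8.49 in hSRY-OFF and 8.36, 8.27 and 8.16 in hSRY-ON, a log2 fold change of -0.33 (SE 0.091, unadjusted limma p 0.0089, adjusted p 0.110). Kcnv1 read 8.55, 8.64 and 8.56 against 8.28, 8.45 and 8.12, a log2 fold change of -0.30 (SE 0.10, unadjusted limma p 0.021, adjusted p 0.160). Neither gene overlapped between the groups. The silent subunits Kcns1 and Kcns2 lay on opposite sides, at 0.14 (adjusted p 0.378) and -0.19 (adjusted p 0.388).

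Kcnh3, of the ether-a-go-go family, read 8.92, 9.21 and 9.34 in hSRY-OFF and 8.72, 8.94 and 8.89 in hSRY-ON. Its groups overlapped at a log2 fold change of -0.31 (SE 0.13, unadjusted limma p 0.046, adjusted p 0.231). Kcnc1, a channel of fast-spiking neurons, gave a log2 fold change of 0.14 (10.30, 10.33 and 10.38 against 10.50, 10.47 and 10.45, no overlap, adjusted p 0.320). The brightest voltage-gated probe, 1 of 2 for Kcnc4, was level at 11.86, 11.90 and 11.91 against 11.98, 11.89 and 11.78 (-0.0062, 95% interval -0.20 to 0.19), and its sign was not settled across the scalings. Kcnd2, the main dendritic transient channel, was at -0.12 (95% interval -0.40 to 0.17, adjusted p 0.627). Across the voltage-gated probes the fold changes ran from -0.55 at Kcna1 to 0.31 at Kcna6.

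Of the 11 two-pore probes, 7 were below 0 and 2 (18.2%) had an unadjusted limma p under 0.05, on opposite sides, against 20.9% of all tested probes. Kcnk6, a weakly rectifying leak channel, read 7.09, 7.34 and 7.06 in hSRY-OFF and 7.79, 7.66 and 7.29 in hSRY-ON. The groups overlapped by 1 array each and the log2 fold change was 0.42 (SE 0.15, unadjusted limma p 0.025, adjusted p 0.169). Kcnk2, which opens on membrane stretch and fatty acids, had 2 probes. The dimmer one read 6.61, 6.68 and 6.57 against 6.54, 6.35 and 6.14, without overlap (log2 fold change -0.28, SE 0.11, unadjusted limma p 0.044, adjusted p 0.225), and the brighter one was at -0.0076 (SE 0.14, adjusted p 0.985). Kcnk1, the brightest two-pore probe, read 11.07, 11.01 and 10.93 against 10.68, 10.95 and 10.76 (log2 fold change -0.21, SE 0.097, adjusted p 0.270). Kcnk3, an acid-sensitive leak channel, was at 0.0064 (95% interval -0.26 to 0.27), and its sign turned with median scaling.

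The calcium-activated group held 4 tested genes, among them the sodium-activated Kcnt1, placed here with its relatives Kcnma1 and Kcnu1. Kcnt1 read 7.37, 7.44 and 7.59 in hSRY-OFF and 8.14, 8.03 and 7.71 in hSRY-ON. Every hSRY-ON array was higher, the log2 fold change was 0.49 (SE 0.13, 1.41-fold) and the unadjusted limma p was 0.0062 with an adjusted p of 0.0940. Kcnn1, a small-conductance channel of the after-hyperpolarization, lay the other way, at 9.78, 9.85 and 9.70 against 9.54, 9.52 and 9.47. Its arrays did not overlap and were tight within each group, with a log2 fold change of -0.27 (SE 0.079, unadjusted limma p 0.012, adjusted p 0.123). Kcnma1, the large-conductance channel, was at 0.05 (SE 0.14, adjusted p 0.893), and its sign turned without hSRY-OFF array 3 or hSRY-ON array 2. Kcnu1, known mainly from sperm, was at 0.18 (adjusted p 0.443).

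The auxiliary genes gave, with Kcnrg, 5 of 19 probes (26.3%) at an unadjusted limma p under 0.05, against 20.9% of all tested probes, and without Kcnrg 2 lay on each side of 0. The Kcnip genes encode calcium-binding subunits of the transient Kcnd channels. Kcnip3, which also acts as a transcriptional repressor, read 10.02, 10.05 and 10.10 in hSRY-OFF and 9.63, 9.76 and 9.80 in hSRY-ON. There was no overlap, with a log2 fold change of -0.33 (SE 0.081, unadjusted limma p 0.0048, adjusted p 0.0861). Kcnip1 lay the other way without overlap, at 7.46 to 7.83 against 7.86 to 8.02 (log2 fold change 0.36, SE 0.12, unadjusted limma p 0.018, adjusted p 0.152). The 3 probes of Kcnip2 were at -0.07, 0.07 and 0.11 and Kcnip4 at -0.04, with adjusted p of 0.647 or more.

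The Kcne genes encode small single-pass subunits. Kcne1l, now named Kcne5, read 10.44, 10.36 and 10.51 in hSRY-OFF and 9.83, 9.98 and 10.30 in hSRY-ON, without overlap (log2 fold change -0.40, SE 0.13, unadjusted limma p 0.017, adjusted p 0.145). Kcne4, which inhibits Kcna channels, read 5.88, 5.55 and 5.93 against 6.55, 6.13 and 6.04, also without overlap (log2 fold change 0.45, SE 0.16, unadjusted limma p 0.028, adjusted p 0.180). The Kcne4 fold change was 0.30 without hSRY-ON array 1 and 0.14 with no background correction, with unadjusted limma p of 0.076 and 0.067. The 2 members thus lay on opposite sides, and Kcne1 was at 0.04 (adjusted p 0.889). All 5 probes of the Kcnab genes, the cytoplasmic beta subunits of Kcna channels, were below 0, between -0.17 and -0.09, with an unadjusted limma p of 0.071 or more. The 3 probes of Kcnab1 gave -0.16, -0.13 and -0.10, and the groups were apart only for the first of these. Kcnab2, the brightest auxiliary probe, read 11.32, 11.38 and 11.40 against 11.22, 11.22 and 11.40. The calcium-activated channel subunits Kcnmb2 and Kcnmb4 were between -0.02 and 0.24 over 3 probes.

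**Figure D4:**
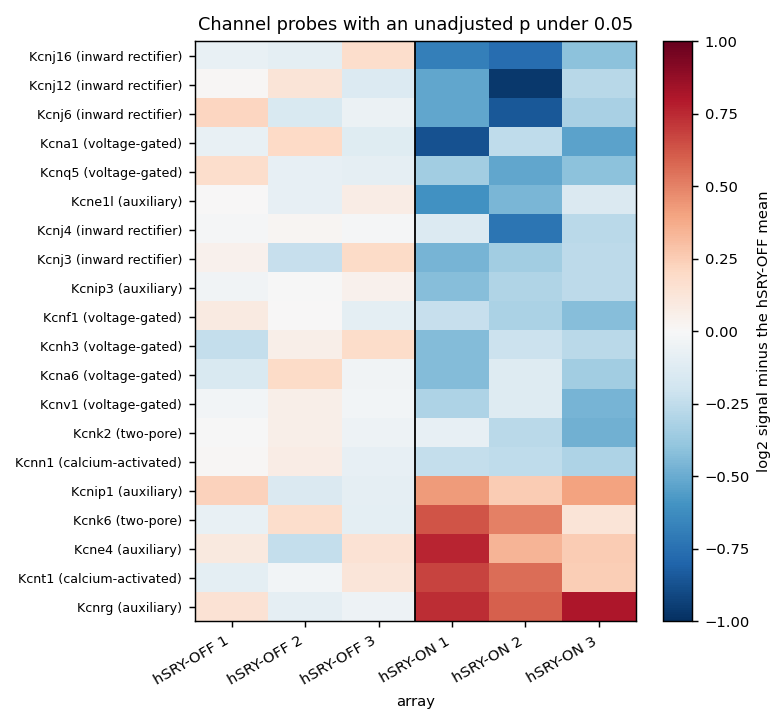
Normalized log2 signal of the 20 potassium channel probes with an unadjusted limma p under 0.05 on each of the 6 arrays, as the difference from the hSRY-OFF mean of the probe (colour, log2 units, from -0.96 to 0.81 here), with hSRY-OFF arrays left of the line and hSRY-ON arrays right of it. The 15 probes below 0 come first, with Kcnj16 and Kcnj12 at the top, and the 5 above 0, Kcnip1, Kcnk6, Kcne4, Kcnt1 and Kcnrg, follow. The place of Kcnj6 among the lower probes is by hSRY-ON values that are not above background.

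Several genes were read by more than 1 tested probe, which gives a check within the gene. Of the 11 such genes, 4 had probes on both sides of 0, Kcna6, Kcnh2, Kcnip2 and Kcnmb4. Of the 20 probes with an unadjusted limma p under 0.05, those of Kcnrg, Kcna6 and Kcnk2 have a second tested probe of the same gene, and 0 of these second probes had an unadjusted p under 0.05. The other 17 rest on 1 probe each. Without 1 array, the unadjusted limma p stayed under 0.05 in all 6 fits for Kcnrg, Kcnip3, Kcnt1, Kcnn1, Kcnj16, Kcnj12, Kcnq5, Kcnf1 and Kcna1.

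Genes outside the Kcn family that work with these channels were described from fixed lists. Of the partners that anchor or modify channels, 11 of 14 genes were tested, 7 were above 0 and 0 passed the adjusted limma test. Dpp10, a subunit of the transient Kcnd channels, read 10.37, 10.36 and 10.49 in hSRY-OFF and 10.74, 10.73 and 10.64 in hSRY-ON (log2 difference 0.30, SE 0.080, unadjusted limma p 0.0073, adjusted p 0.101). Lgi1, a secreted protein that acts on Kcna channels, was at 0.37 (unadjusted limma p 0.013) with 1 probe and at 0.06 with the other. Dpp6, the relative of Dpp10, was at 0.04 with its groups overlapping.

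Of the sodium-potassium pump, 5 of 6 subunit genes were tested, 4 were below 0 and 0 passed. Of the HCN channels, which carry a mixed sodium and potassium current, Hcn2 was at 0.05 and the 3 probes of Hcn3 at 0.29, -0.22 and -0.49, the last pair with unadjusted limma p of 0.032 and 0.017, so the probes of Hcn3 disagree. None of these lists had a gene past the adjusted threshold, and 1 gene in each had an unadjusted limma p under 0.05 by its brightest probe (1 of 11, 1 of 5 and 1 of 2 tested genes, against 20.9% of all tested probes).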

How the data were processed

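Whole brain RNA of 3 hSRY-OFF and 3 hSRY-ON male mice was profiled on Illumina MouseRef-8 v2.0 arrays, and groups and replicate numbers came from the labels. The authors deposited a linear mean bead intensity per probe and array, with no background correction or normalization stated. The authors also deposited a detection p-value per probe and array, whose steps correspond to 798 negative controls. The package TCC, which the study named without settings, was not used here. Values were computed with limma 3.58.1 in R 4.3.3. From the detection p-values, limma's nec infers the level and spread of the negative controls. The intensities were corrected with its normexp model (offset 16), put on the log2 scale and quantile normalized. This correction widens both the fold changes and the spread at low signal.

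Probes with a detection p under 0.05 on at least 3 of 6 arrays were fitted with lmFit and eBayes, two-sided, with the group as the only term, and p-values were adjusted over all tested probes. Every adjusted or unadjusted p of a probe is from this fit unless another is named. Probes of a gene were tested separately, and for the marker and partner lists a gene was read by its brightest tested probe. Precision is limited by 3 arrays per group. An exact permutation test over the 10 splits of the arrays cannot give a p below 0.1.

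The genes named were those with an unadjusted p under 0.05, the brightest probe and the extremes of each subfamily, and a fixed list of known brain channels. Kcnh2, Kcnmb2, Kcnmb4, Kcnu1, Kcne1, Kcns1, Kcns2 and Kcna3 were named after their values were seen. Some genes that the rule names are not reported here, though they count in every total. The members and lists were chosen with earlier results of these data known. The fit was tested on simulated data, where it recovered 72 of 97 probes with a log2 change of 1 and 26 of 100 with a change of 0.5. Changes of 0.5 or less can thus often go without a call. The array table names no genome build, so gene coordinates are given for RefSeq promoters (GRCm38.p6) only. All 83 symbols matched the RefSeq table. Alternatives were other background corrections, scalings, filters, priors, weights and thresholds, a replicate block, 1 probe per symbol and leaving out each array, and leaving out Kcnj6 was added after the data were seen. Figures were made in Python 3.11.15 with matplotlib 3.10.9.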

Additional observations from a re-analysis of the deposited data

How the results depend on the processing

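The count of 1 called potassium channel probe (308 over all probes) became 6 (1317) without background correction, 4 (860) with normexp on the signals and an offset of 50, 2 (332) with median scaling, 3 (705) with a detection p under 0.01 on all arrays, 5 (1434) with a trend prior, 5 (1447) with a trend and robust prior, 2 (480) with array weights, 5 (999) at an adjusted p of 0.10 and 2 (375) with 1 probe per symbol. With no filter on dim probes it was 1 (123). Leaving out 1 array gave 0 to 4 (0 to 417), with 4 only without hSRY-ON replicate 3 and 0 without any of the other 5. The replicate number as a block gave 0 (0), with 23 potassium channel probes at an unadjusted limma p under 0.05 and the Kcnrg probe at an adjusted p of 0.0989. The labels share only a number, and what it stands for is not known here. Deviations of same-numbered arrays correlated at 0.04, 0.03 and 0.03 and those of the other pairs at -0.023 to -0.0054. Every array thus correlated best with its own number, and these small values do not settle whether such arrays belong together.

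The 20 potassium channel probes at an unadjusted limma p under 0.05 were 16 to 24 over the other alternatives and 11 to 19 without 1 array, with 13 without hSRY-OFF replicate 2, 11 without hSRY-OFF replicate 3 and 12 without hSRY-ON replicate 1. The 5 inward rectifier probes became 3 with the strict filter, which tested 4, and 2 to 5 without 1 array. The inward rectifier median of -0.37 became -0.15 without background correction, -0.26 with the offset of 50, -0.16 with no filter and -0.44 to -0.27 without 1 array. The median of all potassium channel probes became -0.040 without background correction. Without 1 array the voltage-gated median was -0.19 to -0.061 (lowest without hSRY-ON replicate 2) and the two-pore median -0.20 to -0.028 (lowest without hSRY-OFF replicate 2), and these were -0.15 and -0.0076 with 1 probe per symbol. The voltage-gated median was -0.029 with the strict filter. The calcium-activated median of 0.11 was 0.064 with no filter and 0.073 to 0.16 without 1 array (lowest without hSRY-ON replicate 2). The auxiliary median became -0.051 with median scaling, 0.037 with no filter and -0.070 with the strict filter, and -0.040 to 0.030 without 1 array, above 0 when hSRY-OFF replicate 2 or hSRY-ON replicate 2 or 3 was left out. The causes were not tested.

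Among the named probes the sign turned with median scaling for Kcnk3 (-0.0068), with cyclic loess for the bright Kcnc4 probe (0.0041) and with array weights for that probe (0.0025). Leaving out 1 array turned 12 of 243 values. The ranges of the 7 probes concerned were -0.15 to 0.0031 for 1 probe of Kcnip2, -0.16 to 0.039 for Kcnip4, -0.074 to 0.17 for Kcnma1, -0.18 to 0.26 for Kcnj2, -0.082 to 0.092 for Kcnk3, -0.079 to 0.13 for the brighter Kcnk2 probe and -0.054 to 0.045 for the bright Kcnc4 probe. Of the 20 probes at an unadjusted limma p under 0.05, 9 kept it in all 6 fits without 1 array, Kcnj6 in the 3 fits that tested it, and the other 10 lost it in at least 1 fit, among them the dimmer Kcnk2 probe (-0.37 to -0.18), which kept it in 1 of 6. With no p under 0.05 in any of these fits, the ranges were -0.41 to -0.055 for Kcnq3, -0.30 to -0.098 for Kcna2, -0.23 to -0.034 for Kcnd2 and -0.44 to -0.0096 for Kcnj9. Probes near background have the widest errors, and Kcnj6 in hSRY-ON is only bounded.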
